A study of Mus musculus with 4 samples.

Results

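The genes described here are a list of 40 antiviral genes of the type I interferon response, chosen by their symbols. Of the 30905 genes in the deposited counts, 39 carried a listed symbol, and Mx2 was not analysed here. The study transplanted mouse hearts and profiled the grafts by single-cell RNA sequencing on day 5. In 2 allogeneic grafts a Balb/C donor heart was placed in the abdomen of a C57BL/6J recipient, and in 2 syngeneic grafts a C57BL/6J heart was placed in a C57BL/6J recipient, so that all recipients shared a strain. Grafts contained donor heart cells and infiltrating recipient cells, and cells were not assigned to donor or recipient here. In allogeneic grafts these cells differ in strain, and an effect of strain on the counts cannot be told apart from class or library.

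The cell barcodes of the merged counts ended in a suffix from 1 to 4, and no label tied a suffix to a graft. The suffixes are therefore called libraries 1 to 4, all cells counted as 1 sample, and no comparison of graft types was made. No value has replicates. Errors are 95% intervals of counting error only, exact Poisson for levels and exact Clopper-Pearson for shares. Library totals ranged from 96020294 to 166079145 unique molecular identifiers (UMIs, counted transcript molecules), and 42395 of 53824 cells were kept. Between libraries, 308 barcodes were shared by a pair of libraries, which involved 616 deposited cells. Of 26 clusters, 23 were assigned to 13 cell classes by marker genes, and 9 clusters drew over 90% of their cells from a single library.

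Type I interferons are secreted when a cell senses foreign or misplaced nucleic acid. They bind the receptor chains Ifnar1 and Ifnar2, and the kinases Jak1 and Tyk2 then activate a complex that contains Stat2 and Irf9 and binds an interferon-stimulated response element (ISRE) near the start of antiviral genes. Interferon gamma is a separate cytokine of T and NK cells that acts mainly through another element, and many genes answer to both. Most cell types have the type I receptor, which is why the response can be read in vascular, stromal and immune cells alike.

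To show the element that many of the genes share, promoters were read from the RefSeq table of build GRCm38.p6, which held 30 of the 40 listed genes. A window of 300 bases, from 250 before to 50 after the start site, was searched on both strands for the ISRE core GAAANNGAAA. It was found in 18 of the 30 genes (60%) against 3.99% of the 27025 genes in the table, counting a gene with any such promoter. The motif TTCNNNGAA, the core of the gamma-activated element, was found in 5 of the 30 (16.7%) against 9.55% of all genes. For a list of 27 genes that lean to interferon gamma, of which 19 were in the table, the counts were 10 (52.6%) and 7 (36.8%). A match describes letters only, and no binding was measured. The first 5 promoters below belong to genes whose endothelial level was highest in library 1, each with a match, and the last belongs to Irf7, whose endothelial level was highest in library 4 and whose window held no match. Each runs 5′ to 3′ from 170 bases before to 10 bases after the start site, with bases of GAAANNGAAA on either strand in capitals. The sixth gene highest in library 1, Cmpk2, had no match, and Ifit3, Oas1a and Ifih1, which were highest in library 4, had matches, and no link between the motif and a library was tested.
Isg15: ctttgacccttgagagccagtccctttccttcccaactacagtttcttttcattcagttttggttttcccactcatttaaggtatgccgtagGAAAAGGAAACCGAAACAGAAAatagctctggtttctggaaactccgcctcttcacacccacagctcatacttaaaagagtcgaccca
Ifit1: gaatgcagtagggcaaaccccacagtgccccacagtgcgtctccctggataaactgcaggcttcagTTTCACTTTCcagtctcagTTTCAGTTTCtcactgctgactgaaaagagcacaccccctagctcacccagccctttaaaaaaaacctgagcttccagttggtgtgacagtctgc
Rsad2: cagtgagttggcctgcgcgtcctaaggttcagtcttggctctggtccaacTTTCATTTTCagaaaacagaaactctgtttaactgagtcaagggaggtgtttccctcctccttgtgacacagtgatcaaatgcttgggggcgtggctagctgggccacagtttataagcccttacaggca
Bst2: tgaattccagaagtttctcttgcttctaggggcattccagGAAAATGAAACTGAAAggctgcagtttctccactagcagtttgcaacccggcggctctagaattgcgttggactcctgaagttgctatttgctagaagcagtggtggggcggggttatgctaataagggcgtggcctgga
Slfn5: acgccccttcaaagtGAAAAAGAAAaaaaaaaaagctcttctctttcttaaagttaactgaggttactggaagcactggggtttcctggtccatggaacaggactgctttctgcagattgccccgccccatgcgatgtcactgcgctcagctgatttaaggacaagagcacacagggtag
Irf7: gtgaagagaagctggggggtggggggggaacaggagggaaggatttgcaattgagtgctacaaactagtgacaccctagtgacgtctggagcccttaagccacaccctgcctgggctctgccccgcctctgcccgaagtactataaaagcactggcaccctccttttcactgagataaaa

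These windows lie at chr4:156200809-156200988 (minus strand) for Isg15, chr19:34640719-34640898 (plus strand) for Ifit1, chr12:26456443-26456622 (minus strand) for Rsad2, chr8:71537463-71537642 (minus strand) for Bst2, chr11:82951932-82952111 (plus strand) for Slfn5 and chr7:141266415-141266594 (minus strand) for Irf7. Isg15 held 3 overlapping matches that began 78, 72 and 66 bases before its start site. Ifit1 and Bst2 held 2 each, and Rsad2 and Slfn5 held 1 each. Many of the genes stood side by side in the GENCODE annotation of the same build: 20 of the 39 fell into 7 groups with gaps under 200 kb. The largest group held Ifit2, Ifit3, Ifit1bl1, Ifit3b and Ifit1 within 99.32 kb of chromosome 19. Rsad2 and Cmpk2 lay within 37.09 kb of chromosome 12, and Parp14, Dtx3l and Parp9 within 139.7 kb of chromosome 16.

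Transcripts of the 39 genes made up 0.382% (0.382 to 0.383) of all non-mitochondrial UMIs. By class, the summed share was highest in macrophage-like cells at 0.556%, dendritic-like cells at 0.527% and endothelial-like cells at 0.438%. It was 0.328% in granulocyte-like, 0.299% in lymphatic endothelial-like, 0.297% in B-like, 0.281% in pericyte-like, 0.233% in T-like, 0.228% in fibroblast-like and 0.217% in Schwann-like cells. Smooth muscle-like cells at 0.0976%, erythroid-like cells at 0.0789% and cardiomyocyte-like cells at 0.0447% had the lowest shares. The intervals of lymphatic endothelial-like (0.293 to 0.304) and B-like cells (0.288 to 0.306) overlapped. Those of T-like (0.231 to 0.235) and fibroblast-like cells (0.227 to 0.229) did not. These intervals hold counting error only, and the pooled classes mix libraries in different proportions. The fibroblast-like share was above the T-like share in libraries 1, 3 and 4, and below it in library 2. In library 3 lymphatic endothelial-like cells held 0.251% and B-like cells 0.168%. The dendritic-like class is a mixed one: 1376 of its 1514 cells came from library 4 at a median of 1211 UMIs, it held 4 of 10 markers, and the epithelial keratin Krt8 was among its leading genes.

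**Figure D1:**
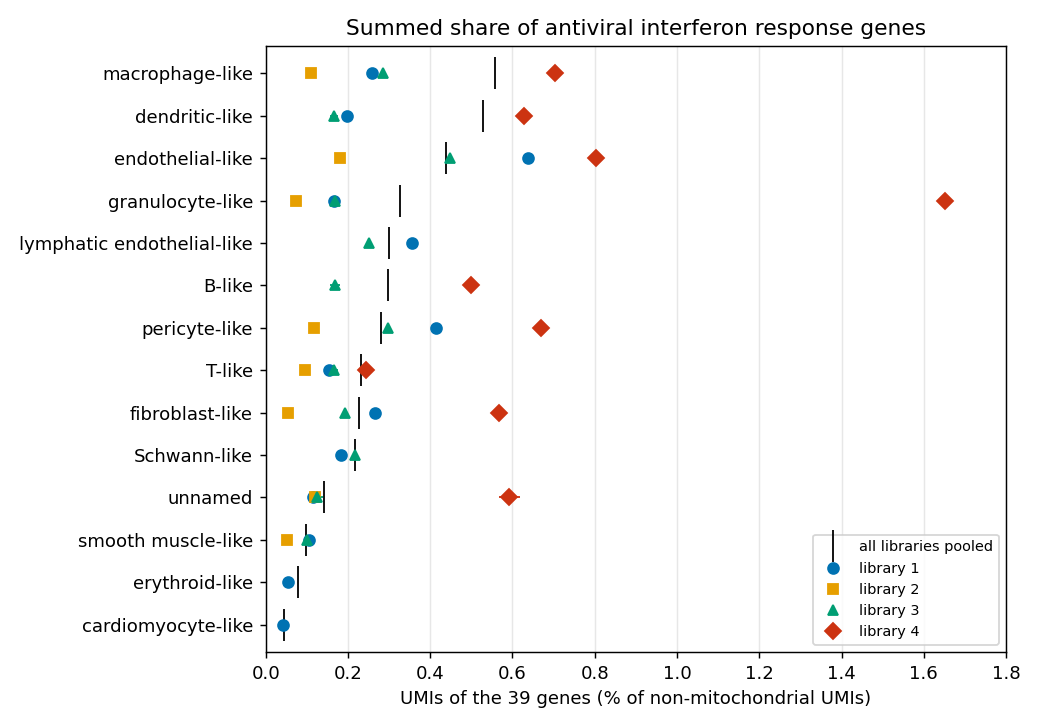
Share of non-mitochondrial UMIs taken by the 39 genes (x axis, percent) in each cell class (y axis). Black ticks are all libraries pooled, coloured points are libraries with at least 50 cells of the class, and bars are exact 95% counting intervals, mostly smaller than the points. Library 4 is at the right in each class where it has enough cells, and library 2 is at the left in each class where it has enough cells except the unnamed cells, where it lies beside libraries 1 and 3.

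The order of the classes depended on the library. In macrophage-like cells the share was 0.258%, 0.111%, 0.285% and 0.703% in libraries 1, 2, 3 and 4. In endothelial-like cells it was 0.639%, 0.181%, 0.448% and 0.803%. Within each library the endothelial-like share was above the macrophage-like share, the opposite of the pooled order. Of the cells pooled, 5806 of the 8516 macrophage-like cells and 639 of the 12380 endothelial-like cells came from library 4. Fibroblast-like cells held 0.266%, 0.0538%, 0.193% and 0.567%, and pericyte-like cells 0.413%, 0.117%, 0.298% and 0.668%, the last from 52 cells. T-like cells varied least of the named classes with a value in all 4 libraries, at 0.155%, 0.0951%, 0.166% and 0.244%. Granulocyte-like cells varied most, at 0.166%, 0.0734%, 0.168% and 1.65% (1.64 to 1.67), and the last was the highest share of any class in any library. In bulk values such as these, more transcripts per cell and more cells with transcripts cannot be told apart. The counts per cell given further on for 5 classes do not fully separate them, because detection in a thinned cell also rises with the mean level.

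Levels are given as UMIs per 1000000 non-mitochondrial UMIs (CPM). Each transcript is counted at its 3′ end, so levels of different genes can be compared without a length correction. Over all kept cells 3 genes held 39% of the summed UMIs. Ifi27l2a, a small interferon-induced membrane protein, stood at 739 CPM, Slfn5, a nuclear Schlafen protein, at 401 CPM and Bst2, or tetherin, which holds budding virions at the cell surface, at 349 CPM. The next were Irf7 at 196, Ifi203 at 182, Ifi204 at 164, Rsad2 at 152, Parp14 at 128, Rtp4 at 112 and Isg15 at 112 CPM. In all, 36 of the 39 were at 10 CPM or more, and Mx1 (9.63 CPM), Oas1g (5.31 CPM) and Ifit1bl1 (4.07 CPM) were not.

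The genes did not share a cell type. Slfn5 was highest in endothelial-like cells (1090 CPM), then in pericyte-like (646) and lymphatic endothelial-like cells (445), and lowest in T-like cells (29.2). Ifi27l2a had another order, with 1487 CPM in macrophage-like, 1092 in dendritic-like, 1082 in B-like and 1045 in T-like cells against 47.7 in endothelial-like and 63.9 in pericyte-like cells. Lymphatic endothelial-like cells, at 733 CPM of Ifi27l2a, were unlike blood endothelial-like cells in that gene. Ifi204, a PYHIN protein that binds DNA, had 376 CPM in macrophage-like and 43.8 in endothelial-like cells, whereas its neighbour Ifi203 had 204 and 233 CPM and was highest in B-like cells at 330. These pooled levels mix the libraries in different proportions, and within library 4 the macrophage-like and endothelial-like levels were 474 and 267 CPM for Ifi204 and 252 and 620 CPM for Ifi203. Oas3, a synthetase that makes the activator of RNase L, stood at 85.0 CPM in macrophage-like, 76.8 in granulocyte-like and 1.28 in endothelial-like cells. Mx1, a GTPase of the Mx family, was at 25.5 CPM in dendritic-like and 25.1 in macrophage-like cells and under 10 CPM elsewhere.

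**Figure D2:**
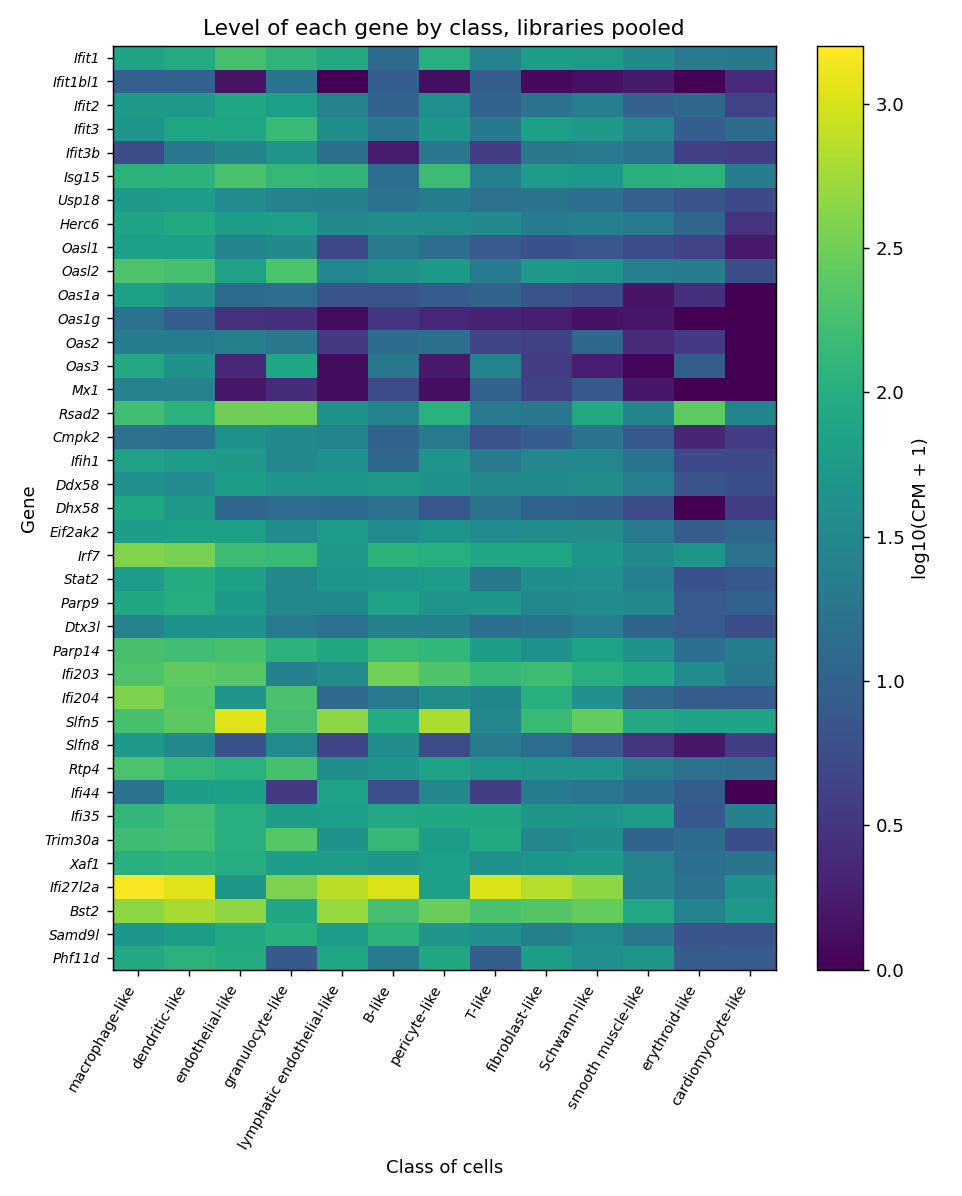
Level of the 39 genes (rows, in order of role) in each cell class (columns, in order of summed share) as log10(CPM + 1), libraries pooled. Slfn5 is brightest in endothelial-like cells (1090 CPM), Ifi27l2a in macrophage-like cells (1487 CPM) and dark in endothelial-like cells (47.7 CPM), while Oas3 is dark there (1.28 CPM).

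Macrophage-like and endothelial-like cells were compared gene by gene, counting genes over 2-fold apart after 10 CPM was added to both. A member was at level in this comparison when it stood at 10 CPM or more over both classes combined. Pooled, 9 of the 37 members at level were higher in macrophage-like cells (Oasl2, Oas1a, Oas3, Mx1, Dhx58, Irf7, Ifi204, Slfn8 and Ifi27l2a), against 13.0% of all genes tested. Lower were 5 (Ifit1, Ifit3b, Cmpk2, Slfn5 and Ifi44), against 19.8% of all genes. The counts changed within libraries. In libraries 1 to 4, 35, 26, 35 and 39 members were at level. In library 1, 4 members were higher (background 9.74%) and 21 lower (19.0%), in library 2, 2 higher (10.5%) and 15 lower (20%), in library 3, 3 higher (9.83%) and 14 lower (18.9%), and in library 4, 6 higher (15%) and 10 lower (10.5%). Ifi27l2a was higher and Slfn5 lower in macrophage-like cells in each of the 4 libraries.

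Endothelial-like cells were examined in each library, since they were the largest class. Here a gene was at level when it stood at 10 CPM or more in the pooled class. It was counted when its CPM plus 10 differed over 4-fold between the highest and the lowest library. A gene could reach that level through a single library, here and in the other classes, so these counts are a description. Of the 34 members at level, 24 did so, against 4.57% of 8138 genes, and the median fold was 5.97 for the members and 1.45 for all genes. Library 4 was highest for 28 of the 34 (background 21.1%), library 1 for the other 6 (28.6%), and library 2 was lowest for 32 (21.1%). Without library 4 the count over 4-fold fell to 6, without library 2 it was 7, without library 1 it was 22 and without library 3 it was 24.

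Those counts rest on cells of different clusters. In libraries 1, 2 and 3, 87.7%, 97.0% and 81.8% of endothelial-like cells fell in clusters 1, 4 and 2, in this order, each with 12 of 12 endothelial markers. In library 4, 98.6% (630 cells) fell in cluster 21, which had 6 of 12 markers and was led by Ubd, Gbp2b, Tpm3-rs7 and Cxcl9 rather than by vascular genes. Defining markers were present there: Cdh5, a junction protein of endothelium, had 1136, 1274, 1418 and 808 CPM in libraries 1 to 4, and Pecam1 had 878, 978, 1079 and 801 CPM. At a clustering resolution of 0.4 the library 4 cells joined a cluster that received no name, and the count was 6. It was also 6 where cells needed at least 500 genes, but there the main cluster of library 1 (3893 of its cells) had no name either.

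The IFIT proteins bind viral RNA that lacks the cell's own cap marks. Ifit1 had 448 CPM (440 to 457) in library 1, 22.2 (20.5 to 23.9) in library 2, 122 (119 to 126) in library 3 and 188 (179 to 199) in library 4. Ifit2 had 147, 11.8, 62.7 and 209 CPM. Ifit1 thus peaked in library 1 and Ifit2 in library 4, although the genes lie in the same group on chromosome 19. Ifit3 (110, 24, 69.1 and 210 CPM) and Ifit3b (36.6, 8.85, 23.4 and 94.8 CPM) had the order of Ifit2, and 6.34% of the 91-base words in the last 500 bases of Ifit3 also occurred in Ifit3b. Ifit1bl1 was at 1.24 CPM or less in each library.

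Isg15 is a ubiquitin-like protein that is coupled to other proteins by Herc6 and removed by Usp18. Isg15 had 513 CPM (504 to 522), 45.2 (42.9 to 47.6), 112 (108 to 115) and 131 (123 to 140) in libraries 1 to 4. Its enzymes were ordered otherwise: Herc6 had 76.6, 20.6, 57.1 and 209 CPM and Usp18 had 40.4, 18.8, 32.2 and 85.1 CPM. Herc6 shared 20.9% of its 3′ words with another annotated gene, so its counts are less certain. Rsad2 encodes viperin, an enzyme that makes an antiviral nucleotide, and its neighbour Cmpk2 encodes a mitochondrial nucleotide kinase. Rsad2 had 584, 80.4, 362 and 284 CPM and Cmpk2 had 69.5, 13.2, 46.9 and 40.5 CPM. Both members of this locus had the same order of libraries, with 1 highest, then 3, 4 and 2.

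Irf7 is the transcription factor that amplifies production of interferon alpha. It had 151 CPM (146 to 155) in library 1, 64.6 (61.8 to 67.5) in library 2, 116 (113 to 120) in library 3 and 757 (737 to 777) in library 4. The other transcription factor in the list, Stat2, had 89.0, 24.6, 71.7 and 150 CPM. Library 4 was highest for both, by a wider margin for Irf7.

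Parp9 and the ubiquitin ligase Dtx3l form a complex, and Parp14 is a related ADP-ribosyl transferase. Dtx3l had 27.8, 12.9, 44.7 and 199 CPM, Parp14 had 283, 51.0, 179 and 464 CPM, and Parp9 had 65.6, 21.8, 52.0 and 176 CPM in libraries 1 to 4. The PYHIN genes went further in the same direction. Ifi203 had 293, 38.3, 281 and 620 CPM, and Ifi204 had 40.3, 12.1, 28.7 and 267 CPM. Libraries 1 and 3 lay close together for Ifi203 and apart from libraries 2 and 4.

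The OAS family makes the second messenger that switches on RNase L, and its OASL members modulate RNA sensing. Oasl2 had 86.7, 22, 61.8 and 252 CPM and Oasl1 had 28.6, 11.7, 19.6 and 122 CPM. The summed level of the 6 OAS genes was 155, 50.5, 126 and 482 CPM, with library 4 highest for each of the 6. Oas1a and Oas1g share 42.2% and 26.6% of their 3′ words, so the split of reads between them is uncertain. RNA sensors varied less. Ifih1 had 80, 23.8, 53.8 and 80.7 CPM, nearly equal in libraries 1 and 4, and the summed level of Ifih1, Ddx58, Dhx58 and Eif2ak2 was 238, 87.5, 203 and 359 CPM.

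Among the other effectors, Ifi44, an interferon-induced cytoplasmic protein, had the largest fold. It had 48.4, 12.9, 72.8 and 332 CPM (319 to 345), a 14.9-fold range with 10 CPM added, next to 14.3-fold for Ifit1, 13.0-fold for Ifi203 and 12.6-fold for Ifi204. Rtp4, a chaperone of cell-surface receptors, had 126, 31.4, 130 and 271 CPM, and Ifi27l2a had 43.4, 11.4, 62.2 and 144 CPM. Trim30a, Xaf1, Phf11d, Ifi35 and Samd9l were also highest in library 4, at 157 to 270 CPM. Ifi35 was the single member at level with its lowest value in library 3 (background 8.23%), at 81.6 CPM against 92.8, 96.2 and 244 in libraries 1, 2 and 4.

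Bst2 and Slfn5 went the other way. Bst2 had 635 CPM (625 to 645) in library 1, 265 (259 to 271) in library 2, 595 (587 to 603) in library 3 and 147 (138 to 156) in library 4, and was the single member at level that was lowest in library 4 (background 43.3%). Slfn5 had 1656, 594, 1143 and 1011 CPM, a 2.76-fold range. Set directly against library 1, library 4 was over 2-fold higher for 18 of the 34 members (background 5.25%) and over 2-fold lower for 4 (8.09%), which were Ifit1, Isg15, Rsad2 and Bst2. Library 3 was over 2-fold lower than library 1 for Ifit1, Ifit2 and Isg15 (3 of 34, background 0.848%) and over 2-fold higher for 0 (0.971%).

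**Figure D3:**
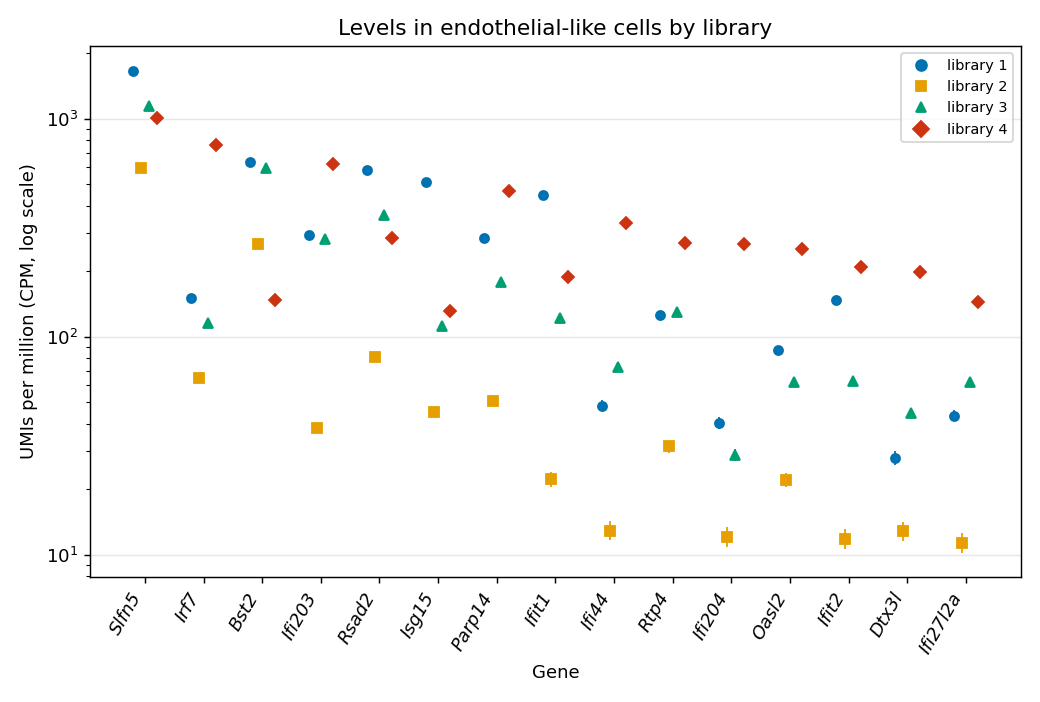
Level of the 15 named genes in endothelial-like cells (y axis, CPM on a log scale), by library, with exact Poisson 95% intervals and genes ordered by their highest value. Library 4 is at the top for most genes, but Slfn5, Bst2, Rsad2, Isg15 and Ifit1 are highest in library 1 (Bst2 at 635 against 147 CPM in library 4), and library 2 is lowest except for Bst2.

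Pericyte-like cells, which wrap the same small vessels, all came from a single cluster, 11. There, 22 of 32 members at level were over 4-fold apart (background 4.41%), 25 were highest in library 4 (22%) and 31 lowest in library 2 (17.9%). Library 1 was highest for 6 (32.2%), which were Ifit1, Isg15, Rsad2, Cmpk2, Slfn5 and Oas2. Isg15 had 382, 59.2, 100 and 142 CPM, Rsad2 had 186, 34.9, 138 and 72.8 CPM, and Irf7 had 106, 35.7, 83.9 and 665 CPM. The first 5 of those genes were also highest in library 1 in endothelial-like cells. Bst2 had 337, 173, 387 and 180 CPM, lowest in libraries 2 and 4.

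In macrophage-like cells 37 members were at level, 24 of them over 4-fold apart between libraries (background 6.85%), with a median fold of 4.71 against 1.49 for all genes. Library 4 was highest for 36 (30.9%) and library 2 lowest for 36 (36.0%). The exceptions were Dtx3l, highest in library 3 (background 20.2%) at 33.1 CPM, and Oasl1, lowest in library 1 (19.4%) at 9.50 CPM. Without library 4 the count over 4-fold fell to 4, and without library 2 to 5. Library 4 held 5806 of the 8516 cells, so a member could be at level through library 4 alone.

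Ifi27l2a led, with 782, 488, 872 and 1820 CPM in libraries 1 to 4. Bst2 had 278, 104, 426 and 526 CPM and was thus highest in library 4 here and lowest there in endothelial-like cells. Irf7 had 85.1, 17.3, 100 and 531 CPM. Library 4 stood apart from the other three for Irf7 and Ifi204, the latter at 158, 124, 159 and 474 CPM. Rsad2 had 40.6, 4.55, 43.0 and 226 CPM, Isg15 had 77.3, 14.1, 32.5 and 145 CPM, and Rtp4 had 58.6, 8.42, 67.8 and 262 CPM. In contrast to endothelial-like cells, Isg15 and Rsad2 were highest in library 4. Slfn5 had 162, 30, 136 and 224 CPM, Parp14 had 80.7, 24.4, 77.0 and 237 CPM, and Ifi203 had 115, 52.2, 116 and 252 CPM.

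Macrophage-like libraries also differed in their clusters. Library 4 consisted of cluster 3 (63.8%), led by the monocyte genes Ly6i, Ms4a4c and Ly6c2, and cluster 7 (35.6%), led by Ccl8 and complement C1q genes. Library 2 consisted mostly of cluster 16 (84.6%), led by Arg1, and libraries 1 and 3 mostly of cluster 12 (74.0% and 88.6%), led by Fcrls and Ms4a7. Within cluster 12 the summed share was 0.254% in library 1, 0.366% in library 2 and 0.281% in library 3, so that library 2 was highest and not lowest. Ifi27l2a had 781, 2772 and 858 CPM there and made up most of the library 2 share, but not of the other shares. The remaining members, summed, were lowest in library 2. Irf7 had 69.7, 23.1 and 97.1 CPM, also lowest in library 2. Within cluster 16 the share was 0.265%, 0.0677% and 0.259%.

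Granulocyte-like cells had the widest range. All 35 members at level were highest in library 4 (background 18.2%), 32 of them over 4-fold apart between libraries (8.25%). The pooled class set the level, so a member could reach it through library 4 alone, and these counts are a description. Rsad2 had 52.0, 23.7, 94.5 and 1806 CPM, Ifit3 had 11.8, 3.22, 34.3 and 905 CPM and Ifi204 had 23.6, 43.3, 39.3 and 983 CPM. Ifit1 had 47.3, 8.35, 51.5 and 700 CPM, and Ifi27l2a had 232, 39.6, 231 and 2051 CPM. Unlike in endothelial-like cells, Isg15 (213, 30.2, 52.7 and 646 CPM) and Slfn5 (78.0, 44.1, 124 and 875 CPM) were highest in library 4 as well. Libraries 1, 3 and 4 shared cluster 15, with 85, 250 and 771 cells, and library 2 had 2742 cells in cluster 5. At resolutions of 0.4 and 1.6, with doublets kept, or with all variable genes, the cluster that held most of the library 4 cells was shallow and received no name. At resolution 1.6 that cluster held 3, 4, 1 and 765 cells of libraries 1 to 4. Another, led by Camp and Ltf, held 82, 7, 249 and 6, so that library 4 was separate there. The granulocyte marker list summed to 182080, 207017, 72023 and 46296 CPM in these granulocyte-like cells.

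In fibroblast-like cells 21 of 30 members at level were over 4-fold apart (background 8.19%), 27 were highest in library 4 (13.3%) and 29 lowest in library 2 (33.2%). Ifi27l2a had 711, 137, 640 and 1826 CPM, Ifi203 had 232, 16.9, 113 and 387 CPM and Irf7 had 55.8, 11.1, 42.8 and 346 CPM. Isg15 (107, 7.92, 35.8 and 88.0 CPM) and Slfn5 (245, 29.1, 130 and 183 CPM) were highest in library 1 (2 of 30, background 31.3%), as in endothelial-like cells. Libraries 2 and 4 here shared cluster 14, with 1031 and 334 cells. Of library 1 cells 71.1% were in cluster 10 and of library 3 cells 88.3% in cluster 6, so that the counts also compare different clusters. At resolution 1.6 libraries 2 and 4 were separate too. An unnamed cluster led by Prg4 held 1020 and 26 of their cells, and a fibroblast-like cluster led by Timp1 held 16 and 298.

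T-like cells were the exception. Of 28 members at level, Ifi27l2a alone was over 4-fold apart between libraries (1 of 28, background 5.82%), with 293, 205, 278 and 1146 CPM. The median fold was 2.08 for the members and 1.68 for all genes. The highest library was 4 for 13 members (39.1%), 3 for 7 (14.6%), 1 for 6 (20.9%) and 2 for 2 (25.4%). Ifit1 had 25.3, 4.12, 41.0 and 26.0 CPM, and Irf7 had 64.5, 31.6, 57.1 and 84.3 CPM. All these cells fell in cluster 9, but their make-up differed between libraries. At resolution 1.6, a T-like cluster led by Gzmb, Gzma and Ifng held 118, 3, 79 and 1274 cells of libraries 1 to 4. Another, led by Lef1, Gimap3 and Il7r, held 55, 157, 42 and 134 cells. The part of this difference in the counts was not tested.

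To see whether the transcripts were spread over cells, each cell was thinned to 1000 UMIs and cells below that were left out (473, 30, 155 and 3 endothelial-like cells in libraries 1 to 4). The mean number of member UMIs in an endothelial-like cell was 6.18, 1.93, 4.64 and 8.35. At least 3 different members were detected in 69.5% (68.0 to 70.9) of cells in library 1, 18.4% (17.1 to 19.8) in library 2, 59.8% (58.2 to 61.3) in library 3 and 93.6% (91.4 to 95.3) in library 4. Cells with 0 members made up 2.92%, 23.6%, 4.94% and 0.629%. Free RNA also adds UMIs to cells, and its part was not measured here in any library. The variance of member UMIs was 5.66, 2.95, 3.26 and 2.66 times the mean in libraries 1 to 4. Library 4 had the highest mean and the lowest ratio. Such a ratio can change with the mean and with the mix of clusters, and the part of either was not tested. With Slfn5, Ifi27l2a and Bst2 left out, the top 10% of cells held 36.3%, 48.3%, 34.1% and 23.2% of the UMIs of the remaining members. Erythroid-like cells of library 1 had a summed share of 0.0545% at a median of 6940 UMIs, and pooled over libraries 0.0789%. Endothelial-like cells of library 1 had 0.639% at a median of 4105 UMIs. The erythroid-like cluster was led by globin genes, whose UMIs lower the share of other genes, so its share is no measure of free RNA. Libraries 3 and 4 held 27 and 2 erythroid-like cells, under the minimum for a value.

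**Figure D4:**
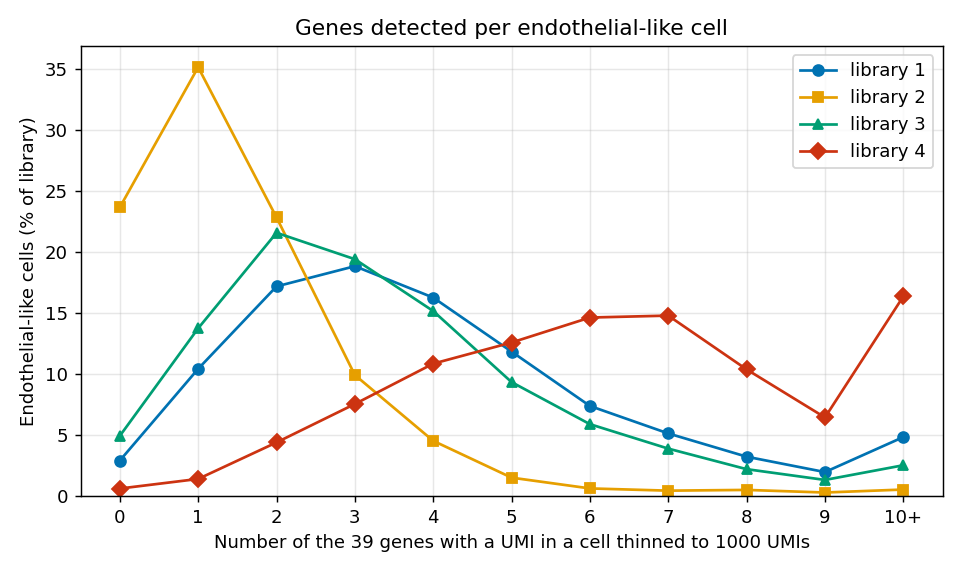
Percent of endothelial-like cells of each library (y axis) by the number of the 39 genes with at least 1 UMI after each cell was thinned to 1000 UMIs (x axis, 10 or more combined). Library 2 peaks at 1 gene, libraries 1 and 3 at 3 and 2, and library 4 at 7 among single counts. The rise at the last point of library 4, to 16.4%, combines all counts of 10 or more.

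Within endothelial-like cells the members were detected together to different degrees. In library 1, Isg15 had a UMI in 54.4% (50.9 to 57.8) of thinned cells with an Ifit1 UMI and in 23.3% (21.9 to 24.8) of those without. In library 2 the shares were 16.9% (9.05 to 27.7) and 3.86% (3.22 to 4.58), and in library 3 24.3% (19.8 to 29.3) and 7.86% (6.98 to 8.81). In library 4 they were 18.3% (11 to 27.6) and 11.4% (8.87 to 14.4), and the intervals overlapped. Irf7 showed the same contrast, with 20.9% (18.2 to 23.9) and 9.90% (8.89 to 11) in library 1 but 51.6% (41.0 to 62.1) and 48.4% (44.2 to 52.7) in library 4. Ifit2 did differ in library 4, at 35.5% (25.8 to 46.1) and 18.4% (15.2 to 21.9). Slfn5 was found in 80% (77.1 to 82.7) of Ifit1-positive and 63.8% (62.1 to 65.4) of other cells of library 1. For Ifi27l2a in library 1 the intervals overlapped, at 4.96% (3.59 to 6.67) and 3.72% (3.10 to 4.44). Thinned cells with a higher member content are more likely to hold any member, and these shares were not adjusted for it.

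In the other classes thinned in the same way, at least 3 members were found in 41.0%, 9.51%, 31.9% and 92% of pericyte-like, 29.6%, 2.70%, 18.1% and 76.7% of fibroblast-like, and 33.5%, 5.4%, 33.5% and 87.6% of macrophage-like cells in libraries 1 to 4. Granulocyte-like cells reached 96.1% in library 4, with a mean of 17.3 member UMIs per 1000, against 19.6%, 4.68% and 16.1% in libraries 1, 2 and 3. In each of these 5 classes library 4 was highest and library 2 lowest.

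Over 38 class and library units of at least 50 cells, each gene's level was ranked against the sum of the others. The genes that followed the sum most closely were Eif2ak2 (Spearman rho 0.94), Irf7 (0.92), Ifih1 (0.92), Xaf1 (0.92) and Parp14 (0.91). Ifit1bl1 (0.17), Oas3 (0.38), Ifi27l2a (0.46) and Isg15 (0.47) followed it least. The units share libraries, depth and free RNA, so these are descriptions.

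The ligands of the pathway were close to the limit of detection. Of 20 type I and III interferon genes, 5 had any UMI in the kept cells. Ifnb1 had 41 UMIs, of which 27 were in macrophage-like cells, Ifnz had 25, Ifnab 15, Ifnk 5 and Ifna2 2. The remaining 15 had 0, which allows up to 3 UMIs among 426540757. By library Ifnb1 had 12, 1, 8 and 20 UMIs. These counts are too few to order cell types.

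Receptors were present in all libraries. Ifnar1 had 45.7, 27.5, 47.0 and 28.6 CPM and Ifnar2 had 116, 87.4, 122 and 142 CPM in endothelial-like cells. Irf9, the DNA-binding part of the complex, had 100, 40.5, 85.9 and 81.2 CPM there and was highest in library 1, unlike Stat2, a listed member that was highest in library 4. In macrophage-like cells Irf9 had 51.7, 22.8, 39.2 and 52.8 CPM.

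Of 12 upstream nucleic acid sensing genes, 8 were at level in endothelial-like cells and Zbp1 alone was over 4-fold apart (1 of 8, background 4.57%). Zbp1 reached the level through library 4 alone, so this count is a description. Zbp1, a sensor of left-handed nucleic acid, had 9.17, 3.94, 7.58 and 312 CPM. Tmem173, which encodes STING, had 90.2, 112, 97.6 and 203 CPM, and Tlr3 had 22.2, 14.9, 26.5 and 27.1 CPM. Of 5 negative regulators at level, Socs1 and Trim30a, the latter also a member, were over 4-fold apart (2 of 5, background 4.57%). Socs1 had 255, 40.4, 87.0 and 211 CPM.

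Interferon gamma transcripts were concentrated in library 4. Over all kept cells Ifng had 264, 0, 134 and 31666 UMIs, or 3.48, 0, 1.22 and 221 CPM, and T-like cells held 30256 of its 32064 UMIs. The receptor gene Ifngr1 had 246, 338, 257 and 157 CPM in endothelial-like cells. Irf1, a transcription factor induced early by interferon gamma, had 1149, 213, 678 and 749 CPM there and so was highest in library 1. Of the 27 interferon gamma-leaning genes, all 24 at level in endothelial-like cells were over 4-fold apart between libraries (background 4.57%), and 23 were highest in library 4 (21.1%). A gene could pass the level filter on the pooled class through library 4 alone, as Ubd did, so these counts are a description. Cxcl9, a T cell chemoattractant, had 514, 23.4, 193 and 10552 CPM, and Ubd, which encodes a ubiquitin-like modifier, had 2.30, 0.162, 0.193 and 1752 CPM.

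Set side by side, the antiviral genes and the interferon gamma-leaning genes took 0.639% and 0.488% of endothelial-like UMIs in library 1, 0.181% and 0.0576% in library 2, 0.448% and 0.259% in library 3, and 0.803% and 2.94% in library 4. The ratio of the first to the second was 1.31, 3.15, 1.73 and 0.273. It was above 1 in libraries 1 to 3 and below 1 in library 4. In fibroblast-like cells the ratio was 2.22, 4.78, 3.61 and 0.377, and in pericyte-like cells 1.40, 3.28, 1.51 and 0.315. Macrophage-like cells, which carry much MHC class II, part of the second list, stood at 0.0673, 0.438, 0.148 and 0.150. Granulocyte-like cells of library 4 combined the highest antiviral share, 1.65%, with 2.14% for the second list, a ratio of 0.773. Many genes of either list answer to both cytokines, so the ratio does not name a ligand.

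**Figure D5:**
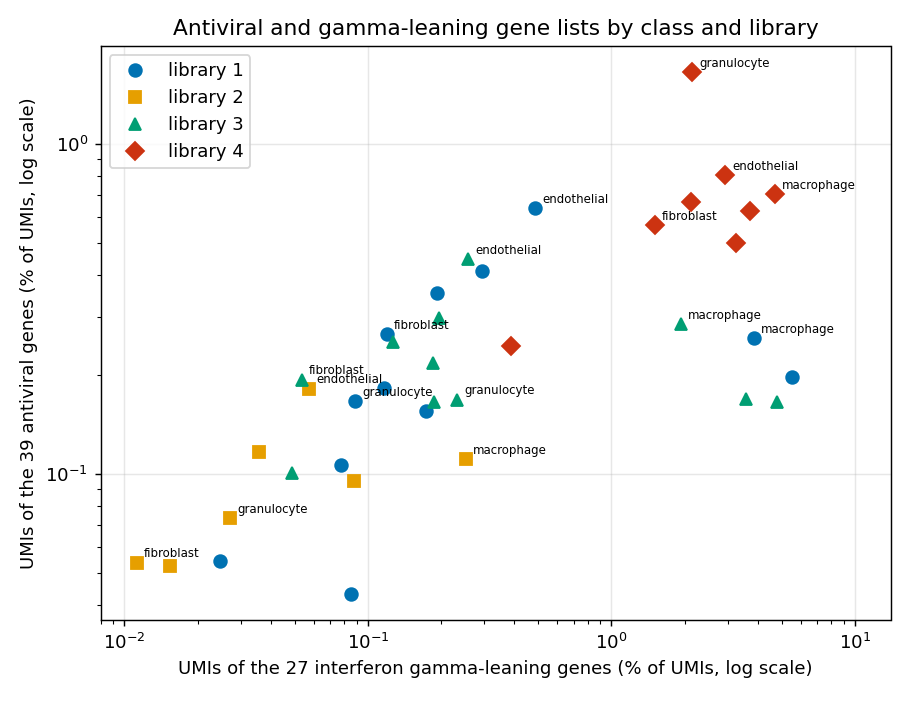
Summed share of the 39 antiviral genes (y axis, percent of UMIs, log scale) against that of the 27 interferon gamma-leaning genes (x axis, log scale) in each of 38 class and library units of at least 50 cells, with 4 classes labelled. Endothelial-like cells move from 0.0576% and 0.181% in library 2 to 0.488% and 0.639% in library 1, and in library 4 lie far to the right at 2.94% but little higher at 0.803%.

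Markers of other cells moved with the libraries. In endothelial-like cells the 7 erythroid markers summed to 19649, 3322, 7128 and 5850 CPM, the 10 granulocyte markers to 59.7, 1740, 32.2 and 61.9 CPM, the 12 macrophage markers to 212, 149, 303 and 698 CPM and the 11 T cell markers to 7.63, 4.39, 5.29 and 85.6 CPM. The 12 endothelial markers themselves summed to 31130, 45726, 29588 and 15521 CPM. Ifi27l2a, 1820 CPM in macrophage-like cells of library 4, was at 144 CPM in its endothelial-like cells. Median depth was 4105, 6630, 6143 and 8579 UMIs. The part of these differences in the results was not tested.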

How the data were processed

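Cells of 4 heart grafts were measured by droplet single-cell RNA sequencing of 3′ transcript ends, 2 grafts in each of the allogeneic and syngeneic groups. The authors deposited 1 merged table of UMI counts per gene and cell, made with Cell Ranger (3.0.0 in the file header) on mouse build mm10. Nothing tied a barcode suffix to a graft, so no group was compared and no test was run. The members and lists were chosen with earlier results of these data known.

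As in the study's methods, cells with over 200 genes and under 20% mitochondrial UMIs were kept, mitochondrial genes were removed, and the 5% of cells with the highest simulated-doublet score were dropped. Each cell's counts were brought to a total of 10000, and 2000 variable genes, 10 principal components and 30 neighbours entered Leiden clustering at resolution 0.8. Members and other interferon and antigen presentation genes (144 in all) were left out of the variable genes, so that classes were not formed on them. Clusters were named from fixed markers. A rule added after the data were seen left unnamed any cluster with under 50% of its class's markers and none among its 10 leading genes. A cluster also stayed unnamed if another class had more of its leading genes, or if it was shallow with no marker among them. Cluster 8, with 9 of 12 endothelial markers and 2094 of its 2109 cells from library 2, was left out in this way. Levels are summed UMIs per 1000000, in libraries with at least 50 cells of a class. Folds were taken after adding 10 CPM, for genes at 10 CPM or more. Values by library are given for the 10 members highest over all cells and the 10 with the largest endothelial fold, and other members were named to complete a role. The packages leidenalg 0.10.2, igraph 0.11.9, scikit-learn 1.9.0, scipy 1.17.1, pandas 2.3.3, numpy 2.4.6 and matplotlib 3.10.9 were run under Python 3.11.15, and the counting steps were tested on simulated data. Alternatives covered doublets, the gene minimum, resolution, variable genes, the weighting of cells, genes and libraries, and leaving out each library. Some results on the pathway are not reported here.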

Additional observations from a re-analysis of the deposited data

How the results depend on the processing

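No paired analysis was possible because the cells carry no replicate number of a graft. The summed share over all cells, 0.382%, was 0.380% with doublets kept, 0.384% with at least 500 genes, 0.387% as a mean of single cells, 0.273% without Ifi27l2a and Bst2, 0.356% as a mean of libraries and 0.255% to 0.462% leaving out a library. In endothelial-like cells, 0.438%, it was 0.437% with doublets kept, 0.305% with at least 500 genes, 0.385% at resolution 0.4, 0.430% with all variable genes, 0.459% as a mean of single cells, 0.387% without Ifi27l2a and Bst2, 0.518% as a mean of libraries and 0.372% to 0.555% leaving out a library. In macrophage-like cells, 0.556%, it was 0.559%, 0.562%, 0.561%, 0.577%, 0.363% and 0.339% under the same settings from at least 500 genes on, 0.563% at resolution 1.6 and 0.211% to 0.616% leaving out a library. In fibroblast-like cells, 0.228%, it was 0.240% with doublets kept and with at least 500 genes, 0.275% at resolution 1.6, 0.239% with all variable genes, 0.226% as a mean of single cells, 0.136% without Ifi27l2a and Bst2, 0.270% as a mean of libraries and 0.181% to 0.277% leaving out a library.

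The endothelial-like fold of the highest over the lowest library, 4.43, was 3.14 with at least 500 genes, 3.85 at resolution 0.4, 4.59 with all variable genes, 4.30 as a mean of single cells, 5.04 without Ifi27l2a and Bst2 and 1.79 to 4.43 leaving out a library. The macrophage-like fold, 6.34, was 6.12 as a mean of single cells, 9.07 without Ifi27l2a and Bst2 and 2.57 to 6.34 leaving out a library. In cluster 12 alone, an alternative chosen after seeing the data, the macrophage-like share was 0.284% and the fold 1.44. There library 2 was highest, mostly through Ifi27l2a, so this fold does not hold the same order of libraries. Of 34 endothelial-like and 37 macrophage-like members at level, 24 each were over 4-fold apart. The endothelial-like count was 6 at resolution 0.4, where most library 4 cells had no class name, and with at least 500 genes, where the main clusters of libraries 1 and 4 had none, and 6 to 24 leaving out a library. The macrophage-like count was 4 to 24 leaving out a library. The causes of the other changes were not tested. Of 390 single-member levels recomputed over 5 settings, 278 stayed within their counting interval and 26 moved by over 1.5 times. Depth limits the interferon ligands, all near 0, and classes with under 50 cells in a library.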

Other observations

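Outside the named classes, 4005 cells in 3 unnamed clusters held the antiviral genes at 0.114%, 0.120%, 0.124% and 0.592% of UMIs in libraries 1 to 4, from 419, 3288, 123 and 175 cells. Dendritic-like cells held 0.197%, 0.166% and 0.629% in libraries 1, 3 and 4, at median depths of 15762.5, 13846 and 1211 UMIs. B-like cells held 0.168% in library 3 and 0.499% in library 4.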
